A study of Homo sapiens with 32 samples.

Results

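The S100 fused genes are a small family whose proteins carry an S100 calcium-binding head fused to a long repeat-rich body, and filaggrin is the best known of them. The 10 genes described here are 6 of that family (FLG, FLG2, HRNR, CRNN, RPTN and TCHH), the protease gene CASP14, and 3 peptidylarginine deiminase genes (PADI1, PADI2 and PADI3). They were chosen by gene symbol. All 10 were found among the 19345 gene symbols of the expression table. Of these, 8 passed the filter on low values (at least 1 TPM in at least 6 libraries, where TPM is a length-normalised share of a library), as did 12221 genes in all. TCHH and PADI2 did not pass it and were not tested.

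RNA was sequenced from EPC2, a human esophageal epithelial line immortalised with telomerase, labelled WT throughout. The groups were 10 libraries of cells before seeding (monolayer, day 0), 9 of Matrigel spheroids at day 3 (D3), 6 of day 11 (D11) spheroids given IL-13 at 20 ng/ml from day 3, and 7 of untreated D11 spheroids. IL-13 is a type 2 cytokine. Spheroids were grown in keratinocyte medium with 0.6 mM CaCl2, which also sets them apart from the monolayer. All groups come from 1 line in 2 independent experiments (batch 1 and batch 2), so the p-values measure the spread between these libraries and not between people.

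In the epidermis, profilaggrin is stored in granules of the last living cell layers and is cut into filaggrin units that bundle keratin filaments. Deiminases convert arginine in filaggrin and keratins to citrulline, which loosens that bundling, and caspase-14 takes part in the final breakdown of filaggrin. The esophagus is lined by a squamous epithelium that normally does not cornify, and cornulin, the product of CRNN, is among its abundant late differentiation proteins.

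The fused genes lie side by side on the minus strand of chromosome 1, within the epidermal differentiation complex. In GENCODE release 29 (hg38) they span 308 kb, from the TCHH end at 152106317 to the CRNN start at 152414263. In that order the run holds TCHH, RPTN, HRNR, FLG (chr1:152302175-152325203), FLG2 (chr1:152348735-152360006) and CRNN (chr1:152409243-152414263). Each gene had 3 exons, and the longest exon held 89.4% of the transcript in CRNN and 98.6% in FLG. PADI2, PADI1 and PADI3 form a second cluster on chromosome 1, with 16 exons each, and CASP14 lies on chromosome 19. An antisense gene, FLG-AS1, spans HRNR, FLG, FLG2 and CRNN, and it was not analysed here. Whether reads were counted by strand is not given in the sources used here, so reads of an antisense transcript cannot be told apart from those of these 4 genes.

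The 110 bases before the start site are shown for the 6 fused genes because these neighbours, read from the same strand, differed so widely in level. Sequences are from RefSeq (GRCh38.p14, minus strand), 5′ to 3′. Capitals mark matches to TGANTCA, a loose form of the AP-1 motif with any middle base (N), and to TATAAA, a strict form of the TATA box.
TCHH: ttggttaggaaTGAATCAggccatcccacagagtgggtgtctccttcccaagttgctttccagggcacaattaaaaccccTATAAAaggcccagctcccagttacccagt
RPTN: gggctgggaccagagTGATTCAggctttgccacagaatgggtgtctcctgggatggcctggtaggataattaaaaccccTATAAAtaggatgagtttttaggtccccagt
HRNR: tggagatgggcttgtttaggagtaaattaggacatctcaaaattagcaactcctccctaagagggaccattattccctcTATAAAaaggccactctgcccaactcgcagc
FLG: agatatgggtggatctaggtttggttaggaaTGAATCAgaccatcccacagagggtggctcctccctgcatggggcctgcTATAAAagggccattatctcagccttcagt
FLG2: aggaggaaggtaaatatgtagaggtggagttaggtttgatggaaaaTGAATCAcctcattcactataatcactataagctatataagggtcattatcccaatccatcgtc
CRNN: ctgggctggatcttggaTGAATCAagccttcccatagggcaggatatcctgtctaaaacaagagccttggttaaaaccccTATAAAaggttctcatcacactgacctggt

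The windows lie at chr1:152115445-152115554 (TCHH), chr1:152159229-152159338 (RPTN), chr1:152224194-152224303 (HRNR), chr1:152325240-152325349 (FLG), chr1:152360007-152360116 (FLG2) and chr1:152414264-152414373 (CRNN). RefSeq promoters were matched for 9 of the 10 genes, and PADI3 was not among them. Over 250 bases upstream and both strands, TGANTCA was found in 5 of the 6 fused genes and in CASP14, against 6.57% of 35116 promoters. In the fused genes it started between position -99 (TCHH) and position -64 (FLG2), and in the wider stretch from -100 to -60, drawn around these positions, 1.30% of all promoters had a match. HRNR was the fused gene with no match. The letters were TGAATCA in TCHH, FLG, FLG2 and CRNN, TGATTCA in RPTN and TGACTCA in CASP14. The strict AP-1 motif has C or G in the middle, so only the CASP14 match is a strict one. The matches of the 5 fused genes, with A or T there, are of the loose form alone. TATAAA stood at position -30 or -31 in 5 of the 6. FLG2 has tatataag at that place, a looser form of the TATA box that the search did not count. Anywhere in the 250 bases, 10.7% of all promoters held TATAAA, so that share is not one for this position. The STAT6 motif (TTC and GAA, 4 bases apart) was in none of the 9 windows, against 5.38% of promoters. The core motif of the aryl hydrocarbon receptor (AHR), GCGTG, was found only in PADI2, against 32.2% of promoters. These matches describe letters and not binding.

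**Figure D1:**
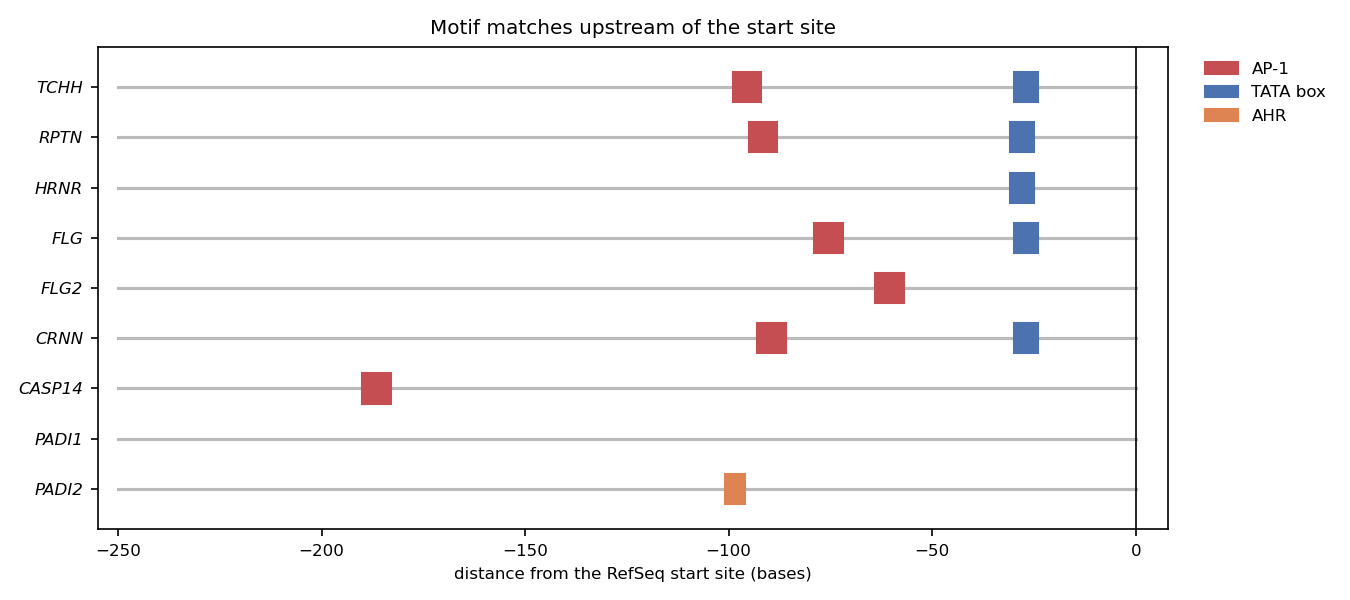
Motif matches in the 250 bases before the RefSeq start site of the 9 genes with a promoter sequence, by distance from the start site in bases. Red boxes (labelled AP-1) mark the loose form TGANTCA and lie between -99 and -64 in 5 fused genes, none of them a strict AP-1 match. Blue boxes (labelled TATA box) mark TATAAA, and HRNR has a blue box but no red box.

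The libraries carried markers of squamous epithelium, whose 7 listed genes summed to between 19060 and 83650 TPM per library. Most of this sum was KRT5 and KRT14, with medians of 13450.8 and 6532.4 TPM in monolayers. KRT4 was listed at 0 in every monolayer, KRT13 at 0 to 0.4 TPM and IVL at 0 to 1.4 TPM. Inner root sheath keratins, the markers of the hair follicle layer in which TCHH is known, summed to at most 2.0 TPM. Fibroblast, endothelial, and columnar and goblet markers summed to at most 0.2, 0.3 and 0.7 TPM, melanocyte markers to at most 2.5 TPM, and of 5 immune markers CD14 alone passed the filter. CD14 ran from 0.3 to 5.1 TPM in monolayers, from 23.3 to 39.3 in D3, from 22.3 to 122.3 in IL-13 D11 and from 10.0 to 58.8 TPM in untreated D11 spheroids. Mitochondrial transcripts took 44.8 to 50.1% of the TPM in monolayers, 39.1 to 57.1% in D3, 13.2 to 25.6% in IL-13 D11 and 14.8 to 27.9% in untreated D11 spheroids. Values are given to 1 decimal and carry no depth, so genes near 0.1 TPM are at the limit of what the table resolves. In the comparisons below, a change is a difference of log2(TPM + 1) with its SE from limma, called at an adjusted p under 0.05, and it understates the change of genes near 0. The median change of all genes was -0.44 in D3 against monolayer, -0.48 in untreated D11 against monolayer, -0.02 in untreated D11 against D3, and 0.19 in IL-13 against untreated D11. Rescaling by median of ratios brought these medians close to 0. Where it changed a call of the 10 genes, the gene is named.

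In culture, 7 of the 8 tested genes were higher in D3 spheroids than in monolayers and PADI3 was lower. Of all genes tested, 12.7% were higher and 68.2% lower in that comparison. Between untreated D11 and D3 spheroids, 6 rose (FLG, FLG2, CRNN, RPTN, CASP14 and PADI1) and 2 fell (HRNR and PADI3), against 33.6% and 35.8% of all genes. The median change of the 8 was 2.17, against -0.02 for all genes tested. Between untreated D11 spheroids and monolayers, 7 rose and 1 fell, against 21.0% and 63.5% of all genes. These comparisons share the D3, D11 and monolayer libraries. FLG, FLG2, RPTN, CASP14 and PADI1 reached 1 TPM in fewer than 6 libraries before D11, so they passed the filter only through D11 libraries. Their rises to D11 are in part fixed by that filter, and so is the median change of the 8. The D11 counts are therefore no test of these genes against all genes. Of the 7 squamous markers 6 rose in D3 against monolayer (7 after rescaling), but 1 rose and 5 fell in untreated D11 against D3. Among those that fell, KRT13 measured 8.3 to 16.2 TPM in untreated D11 spheroids and 24.7 to 105.4 TPM in D3 spheroids. The part of these markers in the results was not tested. In bulk RNA, fewer cells making a transcript and less of it per cell cannot be told apart.

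**Figure D2:**
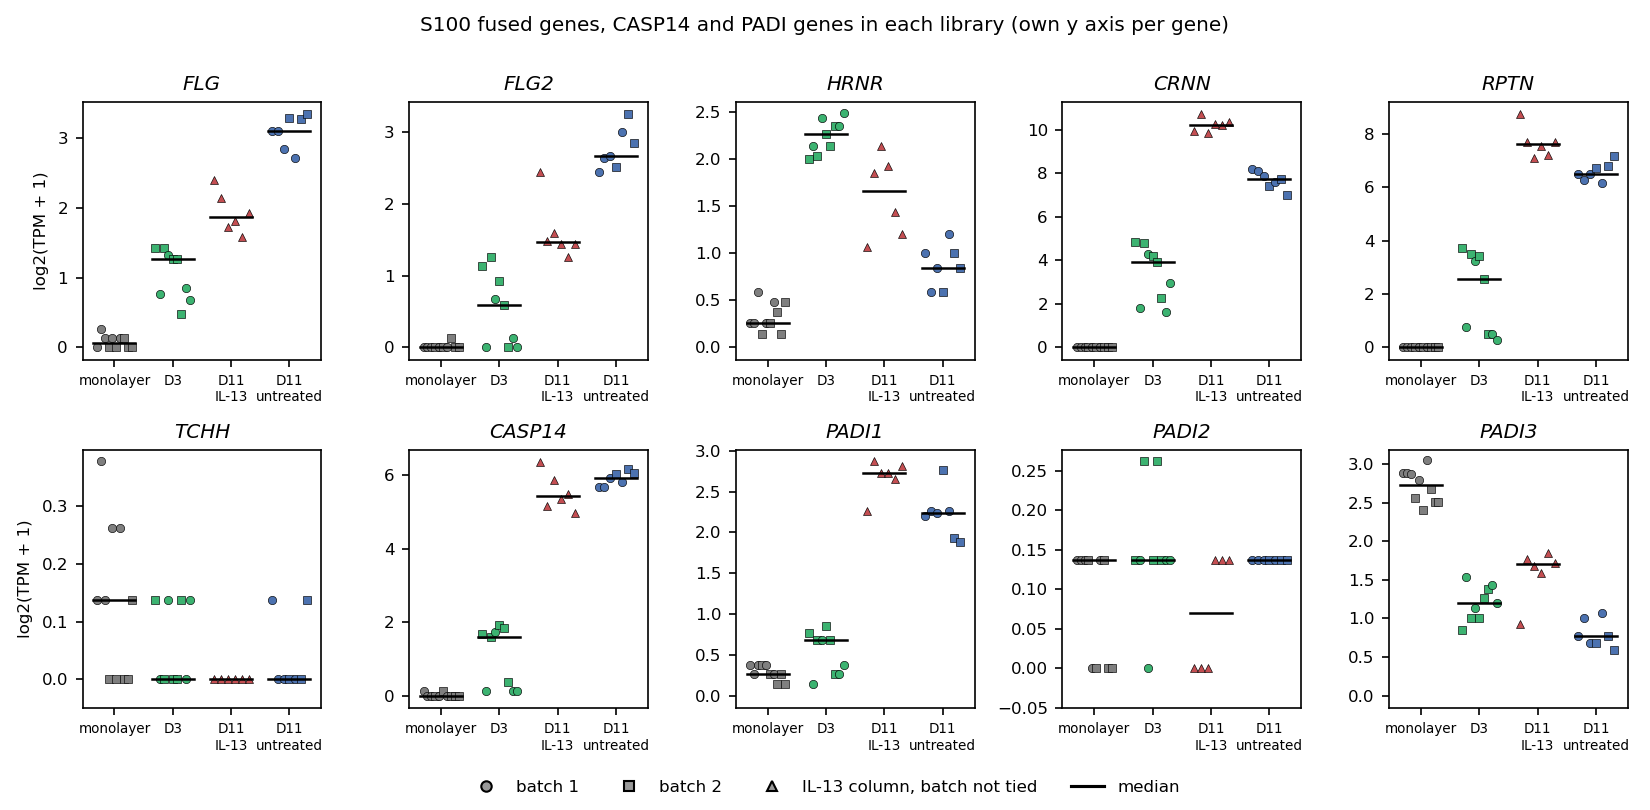
Level of each gene in each library as log2(TPM + 1), with its own axis, in monolayers (n = 10), D3 spheroids (n = 9), IL-13 D11 spheroids (n = 6) and untreated D11 spheroids (n = 7); lines are medians. HRNR peaks at D3 and PADI3 in monolayers, while CRNN is highest with IL-13 and FLG in untreated D11 spheroids.

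FLG and FLG2, the filaggrins, were near the limit in monolayers and gained in both steps without reaching high levels. FLG, which encodes profilaggrin, ran from 0 to 0.2 TPM in monolayers (median 0.05), from 0.4 to 1.7 in D3 spheroids (median 1.4) and from 5.6 to 9.2 in untreated D11 spheroids (median 7.6). No library of one stage overlapped with the next. Its change was 0.96 ± 0.114 in D3 against monolayer (limma adjusted p = 6.2e-09) and 2.06 ± 0.125 in untreated D11 against D3 (limma adjusted p = 5.1e-15). FLG2, whose product is processed like filaggrin, was listed at 0 in 9 of 10 monolayers and at 0.1 TPM in the other. It measured 0 to 1.4 TPM in D3 spheroids (median 0.5) and 4.4 to 8.5 TPM in untreated D11 spheroids (median 5.3). The D3 libraries overlapped with the monolayers, and the untreated D11 libraries all lay above the D3 libraries. FLG2 changed by 0.50 ± 0.148 in D3 against monolayer (limma adjusted p = 0.0031, a call lost with a pseudocount of 5) and by 2.27 ± 0.163 in untreated D11 against D3 (limma adjusted p = 2.5e-13). Within each D11 library the 2 genes stayed near each other, with 0.800 to 1.87 times as much FLG as FLG2 in untreated spheroids.

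HRNR, which encodes hornerin, another filaggrin-like protein of the cornified envelope, took a different course. It measured 0.1 to 0.5 TPM in monolayers (median 0.2), 3.0 to 4.6 TPM in D3 spheroids (median 3.8) and 0.5 to 1.3 TPM in untreated D11 spheroids (median 0.8). All D3 libraries lay above all others of the time course, and untreated D11 spheroids overlapped with monolayers at 0.5 TPM. HRNR changed by 1.92 ± 0.108 in D3 against monolayer (limma adjusted p = 3.2e-16), by -1.39 ± 0.119 in untreated D11 against D3 (limma adjusted p = 1.2e-11) and by 0.53 ± 0.116 in untreated D11 against monolayer (limma adjusted p = 1.1e-04).

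CRNN and RPTN, which encodes the envelope protein repetin, reached the highest levels of the family. CRNN was listed at 0 TPM in all 10 monolayers, ran from 2.1 to 27.8 TPM in D3 spheroids (median 14.3) and from 129.3 to 289.4 TPM in untreated D11 spheroids (median 212). RPTN was likewise listed at 0 in all 10 monolayers, with 0.2 to 12.2 TPM in D3 spheroids (median 4.9) and 70.2 to 142.4 TPM in untreated D11 spheroids (median 89.0). For both genes each stage lay wholly above the stage before. No fold is given against a group listed at 0, although both genes passed the test in D3 against monolayer (limma adjusted p = 3.1e-11 for CRNN and 6.3e-06 for RPTN). CRNN then changed by 4.33 ± 0.343 (limma adjusted p = 2.2e-12) and RPTN by 4.62 ± 0.388 (limma adjusted p = 7.6e-12) in untreated D11 against D3. TCHH, which encodes the hair and tongue protein trichohyalin, stayed between 0 and 0.3 TPM in every library, and TCHHL1, its neighbour and relative, never exceeded 0.2 TPM.

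Of the 8 tested genes, FLG, HRNR, CRNN and RPTN had D3 libraries wholly above the monolayers and PADI3 wholly below, against 5.29% and 39.0% of all genes. All of them but PADI3 separated wholly in untreated D11 against D3, 6 upward and HRNR downward, against 19.1% and 19.0% of all genes. All but HRNR did so in untreated D11 against monolayer, against 13.4% higher and 45.3% lower. The filter limits the D11 counts here as it does those given above.

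The sum of the 6 fused genes was 0.1 to 0.7 TPM in monolayers, 7.30 to 46.0 TPM in D3 spheroids and 280.2 to 391 TPM in untreated D11 spheroids. CRNN held 28.0 to 62.0% of that sum in D3 spheroids (median 55.3%) and 44.9 to 75.6% in untreated D11 spheroids (median 70.0%). HRNR held 6.52 to 54.7% of the sum at D3, but only 0.135 to 0.464% in untreated D11 spheroids. FLG held 1.83 to 3.19% in untreated D11 spheroids, so that it was a small part of the summed TPM. TPM is scaled by length, but how reads that match several repeats were counted is not given in the sources used here. Levels of these repeat-rich genes may be lowered to unlike degrees, so shares and ratios between genes are rough. Changes of 1 gene between groups rest less on this.

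CASP14 encodes a caspase of the cornifying layers. It was listed at 0 in 8 of 10 monolayers and at 0.1 TPM in the other 2, at 0.1 to 2.8 TPM in D3 spheroids (median 2.0) and at 50.1 to 71.8 TPM in untreated D11 spheroids (median 59.8). Some D3 libraries were at the monolayer level, and the untreated D11 libraries were far above all D3 libraries. The change was 1.01 ± 0.205 in D3 against monolayer (limma adjusted p = 5.2e-05) and 4.90 ± 0.226 in untreated D11 against D3 (limma adjusted p = 8.1e-18).

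The deiminase genes did not move together. PADI1, a deiminase expressed throughout the living epidermis, measured 0.1 to 0.3 TPM in monolayers (median 0.2), 0.1 to 0.8 in D3 spheroids (median 0.6) and 2.7 to 5.8 in untreated D11 spheroids (median 3.7). It overlapped between monolayers and D3 spheroids but not between D3 and untreated D11 spheroids. PADI1 changed by 1.70 ± 0.110 in untreated D11 against D3 (limma adjusted p = 2.2e-14). In D3 against monolayer it changed by 0.23 ± 0.10 (limma adjusted p = 0.033), a call lost with a pseudocount of 5 or quantile normalization, without monolayer library 8 or 10 and without D3 library 1, 3, 4, 5 or 6, where the change lay between 0.20 and 0.28 over all libraries left out in turn. PADI3, which acts in the upper epidermis and the hair follicle, ran the other way. It measured 4.3 to 7.3 TPM in monolayers (median 5.65), 0.8 to 1.9 TPM in D3 spheroids (median 1.3) and 0.5 to 1.1 TPM in untreated D11 spheroids (median 0.7). All D3 libraries lay below all monolayers, and the later groups overlapped. The change was -1.50 ± 0.0911 in D3 against monolayer (limma adjusted p = 2.2e-15) and -0.44 ± 0.10 in untreated D11 against D3 (limma adjusted p = 2.6e-04). PADI2, a deiminase of many tissues, was listed at 0.1 TPM in all 7 untreated D11 libraries and at 0 to 0.2 TPM elsewhere. PADI4 stayed at 0 to 0.1 TPM, and PADI6 was listed at 0 in every library.

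At day 3 the libraries differed widely for 6 of the 8 tested genes. D3 libraries 2, 7, 8 and 9 held the 4 lowest values of CRNN (2.1 to 6.8 TPM, with 14.3 to 27.8 TPM in the other 5), RPTN (0.2 to 0.7, with 4.9 to 12.2) and CASP14 (0.1 to 0.3, with 2.0 to 2.8). They also held the 4 lowest values of FLG (0.4 to 0.8, with 1.4 to 1.7 TPM), FLG2 (0 to 0.1, with 0.5 to 1.4) and PADI1 (0.1 to 0.3, with 0.6 to 0.8). HRNR was no lower in these libraries (3.4 to 4.6, with 3.0 to 4.4 TPM) and PADI3 mostly higher (1.3 to 1.9, with 0.8 to 1.4 TPM). The split was seen in the values, so it was not tested. It followed the experiment in part, since libraries 2, 8 and 9 are of batch 1 and library 7 is of batch 2, while library 4 of batch 1 was among the other 5. The same 4 libraries had mitochondrial shares of 53.1 to 57.1%, with 39.1 to 45.8% in the other 5. Their cornified epidermis markers (KRT1, KRT2, KRT10 and LORICRIN), mostly KRT10, summed to 47.1 to 74.1 TPM, with 497.1 to 663 TPM in the other 5. The part of these in the results was not tested.

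Within batch 1, the D3 against monolayer change was 0.51 for CASP14 (limma adjusted p = 0.093), 0.20 for FLG2 (limma adjusted p = 0.18) and 0.03 for PADI1 (limma adjusted p = 0.75). Within batch 2 these genes changed by 1.46, 0.75 and 0.41 and passed the test. In these genes and in CRNN, D3 library 4 of batch 1 lay with most of batch 2, and library 7 of batch 2 with most of batch 1. The values within batches therefore average unlike libraries, and why was not tested. Without D3 libraries 4 and 7, the fit over both batches gave 1.00 for CASP14, 0.54 for FLG2 and 0.25 for PADI1 (limma adjusted p = 3.4e-05, 0.0017 and 0.036). HRNR changed by 1.98 in batch 1 and 1.88 in batch 2, and PADI3 by -1.57 and -1.44. The batch difference itself passed the test for CASP14 in D3 against monolayer (0.95, limma adjusted p = 0.038) and for CRNN in untreated D11 against D3 (-1.91, limma adjusted p = 0.037). CRNN changed by 5.28 within batch 1 and by 3.37 within batch 2 in that last comparison. Of all genes tested, 45.2% had a batch difference in D3 against monolayer and 23.8% in untreated D11 against D3, so such a difference is not particular to these genes.

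**Figure D3:**
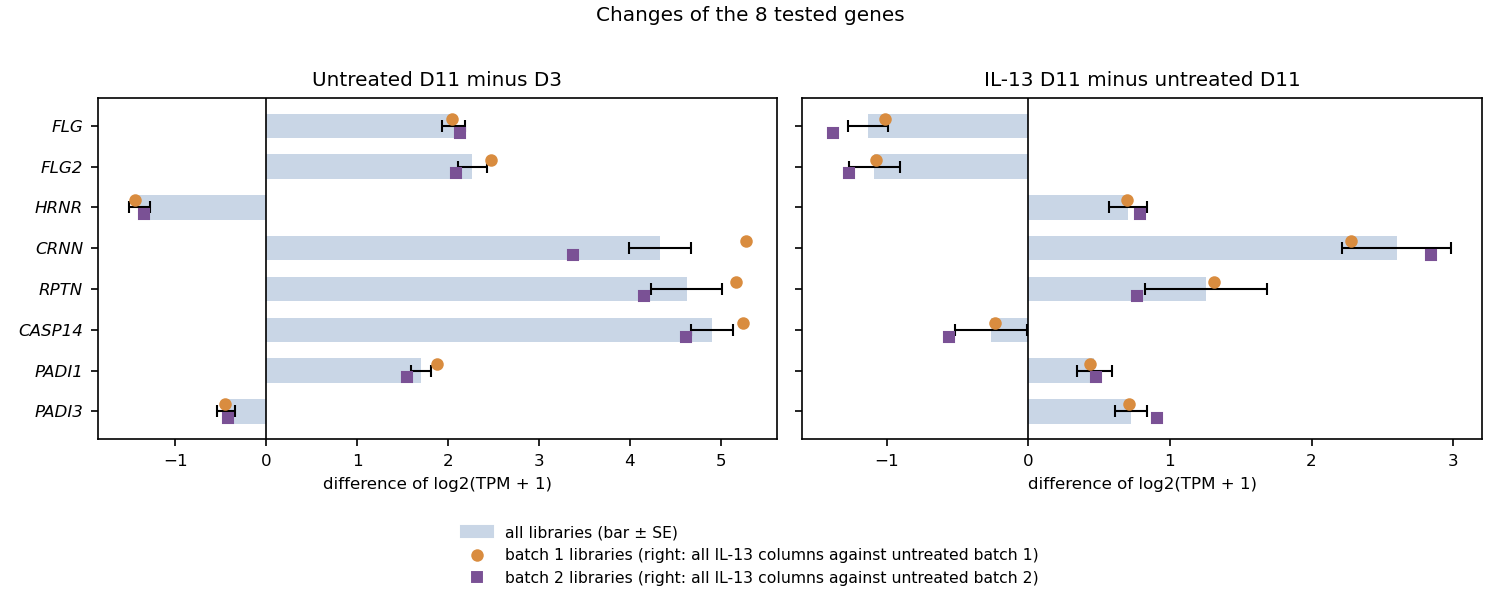
Differences of log2(TPM + 1) for the 8 tested genes, untreated D11 minus D3 on the left and IL-13 D11 minus untreated D11 on the right; bars with SE use all libraries and points give the values within or against single batches. HRNR and PADI3 point down on the left and up on the right, and CRNN points up in both panels (4.33 and 2.60).

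From monolayer to D3 and on to untreated D11, genes of filaggrin proteolysis moved in both directions, while all tested envelope genes rose. Of 11 tested genes of filaggrin proteolysis and its control, out of 13 listed, 5 rose and 3 fell in D3 against monolayer. For all genes the shares were 12.7% and 68.2%. After rescaling 9 rose and 2 fell, where 33.2% of all genes were higher and 33.1% lower, since PRSS8, ST14 and BLMH then passed upward and CAPN1, lower before, was higher. Between untreated D11 and D3 spheroids, 7 rose and 1 fell, against 33.6% and 35.8% of all genes. KLK7, a kallikrein protease, changed by 3.30 ± 0.238 and 4.23 ± 0.262 in these steps (limma adjusted p = 1.4e-13 and 7.9e-15), and KLK5, its activator, by 3.80 ± 0.266 in the first (limma adjusted p = 6.9e-14). SPINK5, the kallikrein inhibitor, rose by 3.74 ± 0.196 in untreated D11 against D3 (limma adjusted p = 1.5e-16). BLMH, an aminopeptidase that breaks down filaggrin peptides, was lower in untreated D11 than in D3 spheroids (-1.30 ± 0.0763, limma adjusted p = 2.4e-15), and FURIN (-0.96, and -0.42 rescaled) and SPINT1 (-0.84, and -0.31 rescaled) were lower in D3 than in monolayers. All 8 tested cross-linking and envelope genes rose in both steps, with TGM1, a transglutaminase, up by 4.98 ± 0.263 in D3 against monolayer (limma adjusted p = 7.1e-17) and KPRP up by 5.89 ± 0.551 in untreated D11 against D3 (limma adjusted p = 8.1e-11). IVL, which encodes the envelope scaffold involucrin, rose by 3.33 in the first step and 4.83 in the second. Set directly against monolayers, untreated D11 spheroids had 6 proteolysis genes higher and 3 lower and all 8 cross-linking genes higher. For all genes the shares were 21.0% higher and 63.5% lower. After rescaling 9 proteolysis genes were higher and 2 lower, where 40.1% and 40.2% of all genes were, with ST14 and SPINT1 gained and CAPN1 turned from lower to higher.

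Of the 3 listed targets of citrullination, the keratins KRT1 and KRT10 rose and S100A3, a deiminase target of the hair cuticle, fell in both steps. S100A3 changed by -1.25 ± 0.193 in D3 against monolayer (limma adjusted p = 7.7e-07, and -0.73 rescaled). It was listed at 0 in all 7 untreated D11 libraries, against 8.2 to 23.2 TPM in D3 spheroids (limma adjusted p = 1.6e-16), and no fold is given. Of 15 tested transcription factors of late keratinocyte differentiation, 6 rose and 9 fell in D3 against monolayer, where 12.7% of all genes were higher and 68.2% lower. After rescaling 9 rose and 1 fell, where 33.2% and 33.1% of all genes did. ARNT, TP63 and STAT6, lower before, were then higher, and PRDM1, JUNB, STAT3 and GATA3 no longer passed. FOSL1, an AP-1 subunit, was the one that still fell (-2.94 ± 0.146, limma adjusted p = 1.5e-17, and -2.41 rescaled), while the lower level of CEBPB was lost (-0.78, and -0.24 rescaled, limma adjusted p = 0.30). CEBPA rose by 4.20, and ZNF750, listed at 0 in all 10 monolayers, measured 4.1 to 32.2 TPM in D3 spheroids (limma adjusted p = 5.1e-13). Of the 15, 10 rose and 2 fell in untreated D11 against D3, where 33.6% and 35.8% of all genes did. The largest rises were those of OVOL1 (3.71 ± 0.177, limma adjusted p = 1.7e-17) and ZNF750 (2.82 ± 0.323, limma adjusted p = 5.3e-09). STAT6, the factor that carries IL-13 signals, fell by 0.75 ± 0.0892 (limma adjusted p = 1.3e-08) and TP63 by 0.55 ± 0.0997 (limma adjusted p = 1.5e-05). Against monolayers, 8 transcription factors were higher and 4 lower in untreated D11 spheroids, where 21.0% and 63.5% of all genes were. After rescaling 10 were higher and 3 lower, with CEBPB and ARNT gained and STAT3 lost, where 40.1% and 40.2% of all genes were.

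With IL-13, the family split: CRNN, RPTN and HRNR were higher and FLG and FLG2 lower than in untreated D11 spheroids. Of the 8 tested genes, 5 rose, 2 fell and CASP14 did not pass, where 39.2% of all genes tested were higher and 8.49% lower. After rescaling, 3 rose (CRNN, HRNR and PADI3) and 2 fell, since RPTN and PADI1 no longer passed, where 19.2% of all genes were higher and 20.6% lower. The median change of the 8 was 0.58, against 0.19 for all genes tested. The libraries of the groups did not overlap for CRNN, as for 9.66% of all genes on the higher side, and for FLG, as for 4.03% on the lower side. The other 6 tested genes overlapped.

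FLG measured 2.0 to 4.3 TPM with IL-13 (median 2.65, mean 2.88 ± 0.842, SD, n = 6) and 5.6 to 9.2 TPM without (median 7.6, mean 7.67 ± 1.36, SD, n = 7). All 6 IL-13 libraries lay below all 7 untreated libraries, and above all D3 libraries. FLG changed by -1.13 ± 0.140 (limma adjusted p = 1.5e-07). FLG2 measured 1.4 to 4.4 TPM with IL-13 (median 1.75) and 4.4 to 8.5 TPM without (median 5.3). The groups met at 4.4 TPM, the value of IL-13 library 1 and of untreated library 1, and the other 5 IL-13 libraries were at or below 2.0 TPM. FLG2 changed by -1.09 ± 0.182 (limma adjusted p = 1.9e-05). The ratio of FLG to FLG2 was 0.977 to 1.89 with IL-13 (median 1.45) and 0.800 to 1.87 without (median 1.46). FLG kept its call under all 26 alternatives tried, with changes of -1.41 to -0.66. FLG2 kept it under the 25 in which it was tested, with changes of -1.29 to -0.58, and was removed by a filter of 5 TPM.

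CRNN measured 927.1 to 1706.8 TPM with IL-13 (mean 1230 ± 276, SD, n = 6) and 129.3 to 289.4 TPM without (mean 216 ± 57.6, SD, n = 7). Every IL-13 library held more than 3 times the highest untreated value. The change was 2.60 ± 0.384 (limma adjusted p = 2.8e-06), 2.28 against the untreated libraries of batch 1 and 2.84 against those of batch 2. CRNN lies 49.2 kb from FLG2 and moved opposite to it, and within a library CRNN exceeded FLG 232 to 594 times with IL-13 (median 483) and 14.1 to 38.4 times without (median 35.0). RPTN measured 133.5 to 426.8 TPM with IL-13 (median 195.95) and 70.2 to 142.4 TPM without (median 89.0). The ranges overlapped only between the lowest IL-13 library and the highest untreated one. RPTN changed by 1.26 ± 0.433 (limma adjusted p = 0.018). That call was lost after rescaling (1.01, limma adjusted p = 0.086), with quantile normalization (0.99, limma adjusted p = 0.080), with a pseudocount of 0.1 (1.33, limma adjusted p = 0.080), with no batch term (1.08, limma adjusted p = 0.0502) and against untreated libraries of batch 2 (0.77, limma adjusted p = 0.19), so the higher RPTN level is less firm than that of CRNN.

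HRNR measured 1.1 to 3.4 TPM with IL-13 (median 2.15) and 0.5 to 1.3 TPM without (median 0.8), against 3.0 to 4.6 TPM at D3. IL-13 libraries 1 and 6, at 1.1 and 1.3 TPM, lay within the untreated range and the other 4 lay above it. HRNR changed by 0.70 ± 0.133 (limma adjusted p = 9.2e-05). TCHH was listed at 0 in all 6 IL-13 libraries. The sum of the 6 fused genes was 1068 to 1919 TPM with IL-13 and 280.2 to 391 TPM without, and CRNN made up 69.6 to 88.9% of it with IL-13 (median 86.7%) and 44.9 to 75.6% without (median 70.0%).

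**Figure D4:**
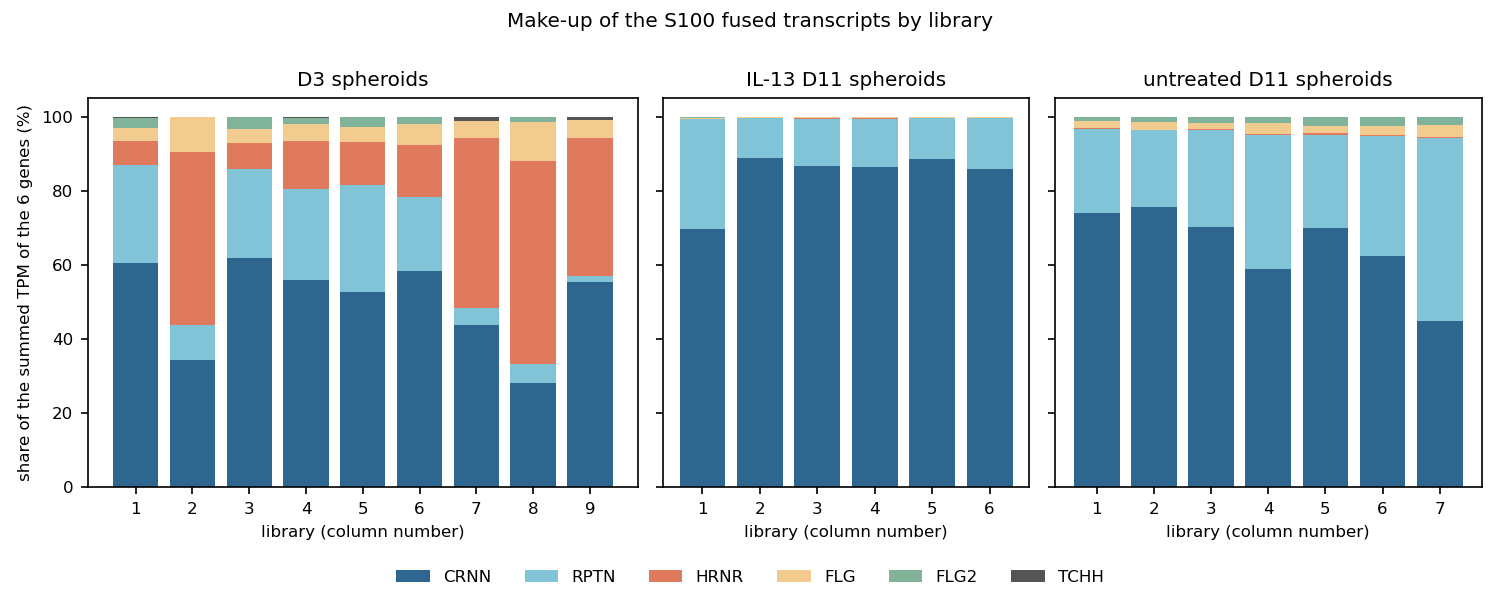
Share of each fused gene in the summed TPM of the 6 genes (percent), one bar per library, for D3, IL-13 D11 and untreated D11 spheroids; monolayers are left out because their sums were 0.1 to 0.7 TPM. HRNR (red) is 6.52 to 54.7% at D3 and a sliver at D11, and CRNN (dark blue) fills 69.6 to 88.9% of the IL-13 bars.

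Of the processing enzymes, CASP14 measured 30.3 to 81.4 TPM with IL-13 (median 42.2) and 50.1 to 71.8 TPM without (median 59.8). IL-13 library 1 was the highest of both groups, library 3, at 57.3 TPM, lay among the untreated libraries, and the other 4 lay below them. The change of -0.27 ± 0.253 did not pass (limma adjusted p = 0.40), and without IL-13 library 1 it was -0.43 (limma adjusted p = 0.14), which does not show that the level was the same. PADI1 measured 3.8 to 6.3 TPM with IL-13 (median 5.6) and 2.7 to 5.8 TPM without (median 3.7), with a change of 0.47 ± 0.123 (limma adjusted p = 0.0027). That call was lost after rescaling (0.26, limma adjusted p = 0.076), with quantile normalization (0.24) and with a pseudocount of 0.1 (0.58, limma adjusted p = 0.092). PADI3 measured 0.9 to 2.6 TPM with IL-13 (median 2.25) and 0.5 to 1.1 TPM without (median 0.7). Apart from library 1, at 0.9 TPM, all IL-13 libraries lay above the untreated ones, and all lay below the monolayers. PADI3 changed by 0.72 ± 0.112 (limma adjusted p = 6.0e-06). PADI2 was listed at 0 in 3 IL-13 libraries and at 0.1 TPM in the other 3.

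IL-13 library 1 stood apart in most members. It was highest of the 6 in RPTN, CASP14, FLG2 and FLG and lowest in HRNR, PADI1 and PADI3, and in CRNN, at 997.8 TPM, it was within the range of the other 5. Its mitochondrial share was 13.2% and its cornified epidermis markers, mostly KRT10, summed to 740.3 TPM, the lowest and the highest of the IL-13 libraries. Without it the 7 calls held, with changes of -1.23 for FLG, -1.25 for FLG2, 2.66 for CRNN, 0.81 for HRNR, 0.55 for PADI1, 0.86 for PADI3 and 1.04 for RPTN (limma adjusted p = 0.046 for RPTN). The IL-13 columns could be tied to the group and not to a batch, so no change within a batch can be given for them.

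The cornified epidermis markers summed to 399.2 to 740.3 TPM with IL-13 and to 1291 to 1755 TPM in untreated D11 spheroids. Most of that sum was KRT10, at 386.4 to 658.0 TPM with IL-13 and 1242.1 to 1685.6 TPM without. KRT10 and LORICRIN were lower beside FLG and FLG2. KRT1 overlapped (12.0 to 77.7 TPM with IL-13, 45.6 to 136.6 TPM without) and did not pass, and KRT2 was not tested. Of the 7 squamous markers 4 rose and 1 (IVL) fell, before and after rescaling. KRT4, a keratin of the esophageal suprabasal layers, measured 484.7 to 1034.5 TPM with IL-13 and 12.3 to 17.7 TPM without, and its partner KRT13 measured 100.1 to 278.0 TPM with IL-13 and 8.3 to 16.2 TPM without. No library of one group overlapped with the other for either keratin. CD14 was higher with IL-13 (1.14, limma adjusted p = 0.0057), in overlapping ranges. The part of these markers in the results was not tested. Of the 8 tested cross-linking and envelope genes, 2 rose and 5 fell with IL-13, where 39.2% of all genes were higher and 8.49% lower. After rescaling 1 rose and 5 fell, where 19.2% and 20.6% of all genes did. IVL changed by -2.33 ± 0.451 (limma adjusted p = 1.2e-04) and LORICRIN, the main envelope protein of epidermis, by -1.73 ± 0.266 (limma adjusted p = 5.4e-06). TGM3, a transglutaminase, went up by 1.48 ± 0.224 (limma adjusted p = 4.2e-06), and the higher level of PPL (0.56 ± 0.145, limma adjusted p = 0.0024) was lost after rescaling (0.30, limma adjusted p = 0.083). Of the 11 proteolysis genes, 5 rose and 3 fell, against 39.2% and 8.49% of all genes. After rescaling 3 rose and 3 fell, as FURIN and SPINT1 were lost, and these shares lie near those of all genes (19.2% and 20.6%). KLK7 and BLMH were higher (1.01 ± 0.293 and 0.88 ± 0.0853, limma adjusted p = 0.0058 and 1.4e-09), while KLK5 and KLK14 were lower (-1.93 ± 0.328 and -0.86 ± 0.283, limma adjusted p = 2.2e-05 and 0.013).

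Of the 15 transcription factors, 5 rose with IL-13, a share no higher than the 39.2% of all genes, and 3 fell, against 8.49%. After rescaling 5 rose and 6 fell, with CEBPA, GRHL3 and KLF4 added, where 19.2% and 20.6% of all genes did. GATA3 rose by 2.71 ± 0.113 (limma adjusted p = 2.5e-18) and TP63, the basal-layer regulator, by 0.82 ± 0.111 (limma adjusted p = 7.8e-07). FOSL1 fell by 1.11 ± 0.180 (limma adjusted p = 1.1e-05) and PRDM1 by 0.74 ± 0.127 (limma adjusted p = 2.6e-05). Of the citrullination targets, KRT10 was lower (-1.42 ± 0.506, limma adjusted p = 0.022) and KRT1 did not pass. S100A3, at 0 in 5 of 6 IL-13 libraries and in all untreated ones, did not pass either.

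**Figure D5:**
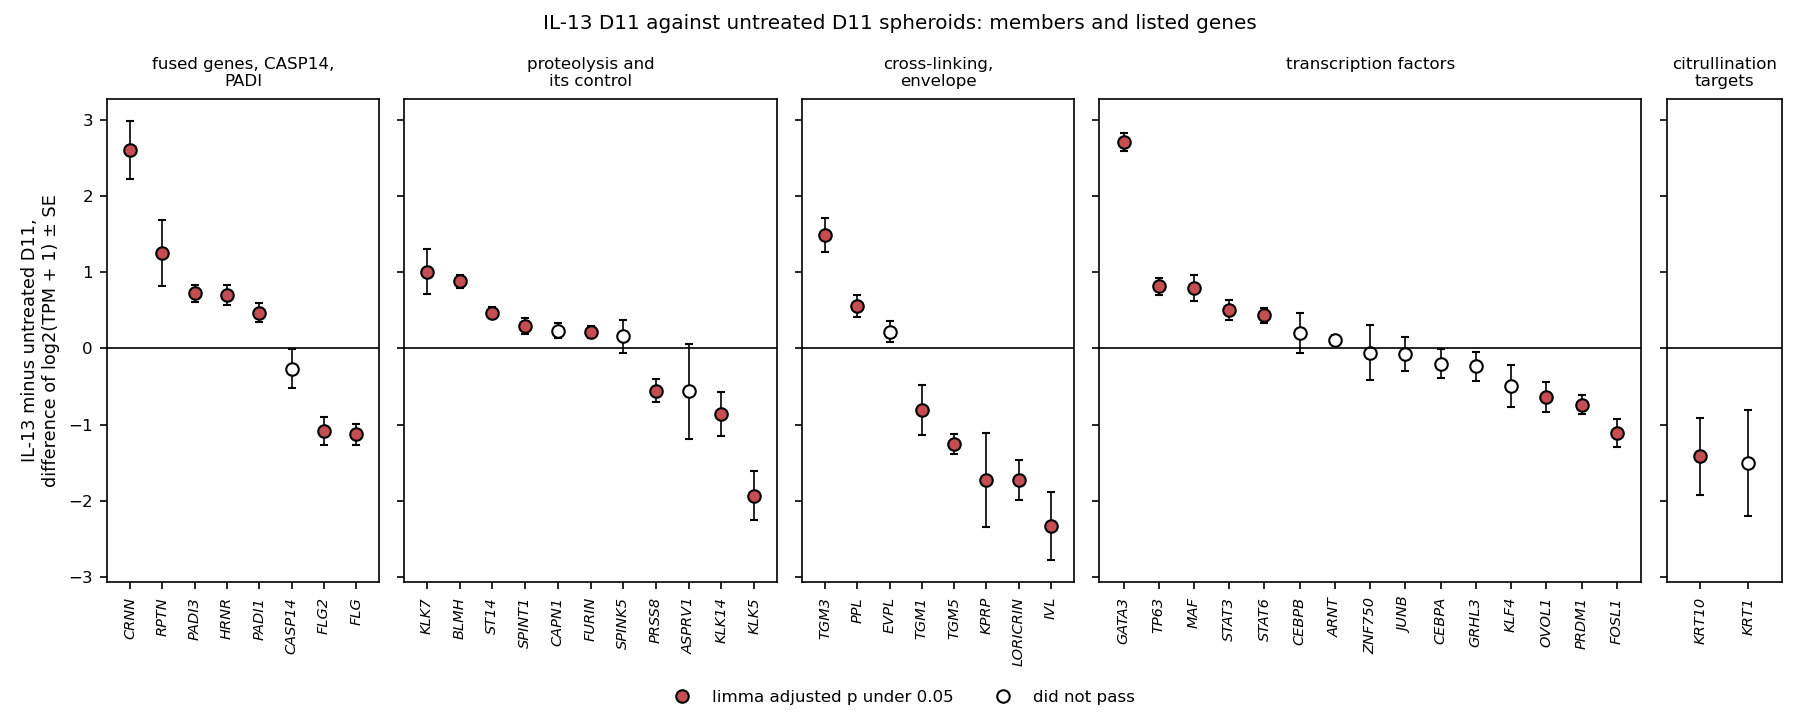
IL-13 minus untreated D11 difference of log2(TPM + 1), with SE, for the 8 tested genes and for the listed proteolysis, cross-linking, transcription factor and citrullination target genes, without S100A3, which was listed at 0 in the untreated group; filled points passed the limma test. CRNN (2.60) and GATA3 (2.71) are the highest points, and FLG and FLG2 lie lowest in the first panel.

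The genes whose profile over the 32 libraries was most like each member were found by the root-mean-square distance of centred log2(TPM + 1) values. For FLG these were RIMS3 (0.241), SCNN1B (0.256) and MALL (0.282), where the spread of FLG itself was 1.15. For FLG2 they were TGM5 (0.262), PLA2G4D (0.267) and SCNN1B (0.278). SCNN1B, a subunit of the epithelial sodium channel, was near both filaggrins, with median levels of 2.2 TPM with IL-13 and 5.2 TPM in untreated D11 spheroids. CRNN lay nearest LGALS7B (0.684), KLK7 (0.744) and SERPINB3 (0.838), with a spread of its own of 3.94, and LGALS7B has a near-identical copy with which it can share reads. RPTN lay nearest NCCRP1 (0.350), KLK12 and CLDN17, and CASP14 nearest SLC39A2 (0.326), VSIG8 and METRNL. HRNR lay nearest LFNG (0.240), LTB4R and ALDH3A2, whose medians also peaked at D3. PADI1 lay nearest TEX101 (0.204), CXADR and PLBD1, and PADI3 nearest SLC38A7 (0.188), VOPP1 and TSPYL4.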

How the data were processed

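The values are TPM for 19345 gene symbols in 32 libraries, which the authors deposited as 1 table with 1 decimal, made from total RNA. Its genome build is hg38, per the submitters' processing notes; what aligner, quantifier, annotation or strand setting was used is not given in the sources used here. Since TPM holds no read depth, precision rests on the spread between libraries, and a gain in abundant transcripts pulls down the rest. Per the labels' protocols, each Matrigel droplet of 20 ul took 40000 cells; 1 part of the culture protocol and 1 listed gene are not reported here.

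By name, 26 columns belong to 1 sample each. The IL-13 columns carry numbers that the IL-13 labels do not, so all 6 were tied to the group alone and entered the fit with the group's share of batch 2 (1 of 6). Libraries are called by column number. Within groups libraries correlated at 0.952 to 0.995 across genes, and no duplicate was found.

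After the filter (1 TPM or above in 6 libraries), limma 3.58.1 under R 4.3.3 was fitted to log2(TPM + 1) of all 32 libraries, with terms for group and batch and a trend of variance with level. Benjamini-Hochberg adjustment ran over 12221 genes, with a threshold of 0.05. The interaction with batch was fitted without the IL-13 libraries. The fit was tested on simulated data. The text names all 10 genes whatever their result and, for each list and comparison, up to 2 of the largest rises and falls past the threshold. List genes whose call rescaling changed, and KRT4, KRT13 and CD14, were named after their values were seen. Members and lists were chosen with earlier results of these data known. A group listed at 0 gets no mean, SD or fold against it. Gene coordinates are from GENCODE 29 and promoters from RefSeq (GRCh38.p14). Alternatives changed the pseudocount, filter, scaling, batch term, batches, library weights, libraries fitted and replicate block, or left out 1 library at a time. Plots used matplotlib 3.10.9 (Python 3.11.15).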

Additional observations from a re-analysis of the deposited data

Results flagged for a closer look

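Of 25 gene and group pairs whose values spanned at least 0.5 TPM, 4 held a library far from the rest. The rule flags about 1 in 20 groups by chance. These pairs share libraries, and IL-13 library 1 gave most of the flags, so the count cannot be set against that rate. IL-13 library 1 was such a library for FLG2, at 4.4 TPM with the next at 2.0, for RPTN, at 426.8 TPM with the next at 207.8, and for PADI3, at 0.9 TPM with the next at 2.0. Untreated D11 library 4 was one for PADI1, at 5.8 TPM with the next at 3.8.

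The change of 2 genes differed between the experiments by a test of the difference itself, among 24 such tests. For CASP14 in D3 spheroids against monolayers, batch 2 minus batch 1 was 0.95 (limma adjusted p = 0.038). For CRNN in untreated D11 against D3 spheroids it was -1.91 (limma adjusted p = 0.037). Of all genes tested, 45.2% and 23.8% had such a difference in these comparisons.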

How the results depend on the processing

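The counts of members called moved as follows. In D3 against monolayer 4 were higher within batch 1 (7 in the fit as reported), 5 with a pseudocount of 5 (without FLG2 and PADI1), 6 with quantile normalization (without PADI1), and 6 to 7 with single libraries left out. A filter of 5 TPM, which removes FLG2 and HRNR, left 5 higher in each comparison without IL-13 and 1 lower in untreated D11 against D3 (2 as reported). With no filter, 2 were lower in untreated D11 against monolayer (1 as reported), since TCHH then passes at a change of -0.10 (limma adjusted p = 0.032). With IL-13, 3 were higher with a pseudocount of 0.1, median-of-ratios scaling or quantile normalization and 4 with no batch term or against untreated libraries of batch 2, where RPTN was lost (5 as reported), and 4 were higher and 1 lower with a filter of 5 TPM (2 lower as reported). The other leave-one-out member counts did not move: 1 lower in D3 against monolayer, 6 higher and 2 lower in untreated D11 against D3, 7 higher and 1 lower in untreated D11 against monolayer, 5 higher and 2 lower with IL-13. No change of a member reversed.

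Counts over all genes moved more, and the cause was not tested. In D3 against monolayer 1556 were higher and 8339 lower, but 4061 and 4051 by median of ratios and 3706 and 4421 by quantiles; leaving out libraries gave 1465 to 1603 and 8091 to 8366. In untreated D11 against D3, 4102 and 4370 became 1663 and 8018 with mitochondrial genes removed, and 3940 to 4184 and 4163 to 4511 with libraries left out. In untreated D11 against monolayer, 2561 higher became 4902 by median of ratios, 4352 by quantiles and 1479 without mitochondrial genes, and 7765 lower became 4915 by median of ratios; leaving out libraries gave 2469 to 2580 and 7594 to 7789. With IL-13, 4785 higher became 2348, 2289 and, against batch 1 alone, 2963, and 1037 lower became 2521 and 2536; leaving out libraries gave 4101 to 6130 and 938 to 1064. A replicate block gave 1551 and 8376, 4085 and 4488, and 2519 and 7758 calls in the comparisons without IL-13, and changed no call of a member. Deviations from the group means correlated at -0.444 to 0.356 between same-numbered libraries. No differently numbered libraries were set beside them, so these values cannot settle whether samples are paired. Many same-numbered D3 and monolayer libraries are of different batches.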
